A study of Mus musculus with 6 samples.

Results

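The genes described here are 10 members of the BCL2 family of survival and death proteins, measured with Illumina BeadChips in the conjunctival epithelium of mouse embryos. They were taken by name rather than by a threshold on their values, together with every probe that the array annotation assigns to them. The pro-survival members are Bcl2, Bcl2l1 and Mcl1, the pore-forming effectors are Bax and Bak1, and the BH3-only members are Bid, Bcl2l11, Bbc3, Pmaip1 and Bmf. Of the 10 genes, 9 were read, by 28 of the array's 45281 probes, and Bax was not analysed here.

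Each of the 6 arrays held RNA from 1 embryo. The KO embryos (n = 3) carried Fgfr2 fx/fx with the Le-Cre transgene, labelled Fgfr2-/-, and the WT embryos (n = 3) were labelled wild type. All had a mixed FVB and 129 background and were collected at E14.5. Le-Cre is driven by Pax6 regulatory sequence and acts in the ectoderm of the lens and ocular surface, so cells of other origin in a KO sample keep Fgfr2. Le-Cre was present in the KO group alone, so its own effect and that of Fgfr2 loss cannot be told apart. The tissue was the fornix of the conjunctival epithelium, laser-dissected from 10 µm sections. The extraction text of the labels instead names future lens. Of the 7 lens markers looked at, Cryaa and Foxe3 were detected in neither group and Crygd in KO only. Cryab was detected on all 6 arrays, and Cryba1 and Prox1 on 3 WT arrays and 1 KO array each. Crygb was detected on 2 WT and 2 KO arrays.

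BCL2 proteins set whether the outer membrane of the mitochondrion stays closed. BAX and BAK1 open it and release cytochrome c, which starts the caspase cascade. BCL2, BCL-XL (from Bcl2l1) and MCL1 hold them back, and the BH3-only proteins bind the survival proteins or activate the effectors directly. Growth factor receptors, FGF receptors among them, act on this balance through ERK and AKT. ERK marks BIM (from Bcl2l11) for degradation, and AKT keeps FoxO factors, which can switch on Bcl2l11 and Bbc3, out of the nucleus.

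The start-site windows of the members that the values below turn on are printed here, with the windows of Bcl2l11 and Bbc3 that hold a FoxO core, to show the DNA around the starts of these genes. Each runs 5′ to 3′ on the gene's strand from 250 bases before to 50 after a RefSeq start site, in GRCm38.p6 coordinates. Capitals mark a motif match, and the motifs were chosen after the promoters had been read.
Bcl2 (chr1:106714241-106714540, minus strand): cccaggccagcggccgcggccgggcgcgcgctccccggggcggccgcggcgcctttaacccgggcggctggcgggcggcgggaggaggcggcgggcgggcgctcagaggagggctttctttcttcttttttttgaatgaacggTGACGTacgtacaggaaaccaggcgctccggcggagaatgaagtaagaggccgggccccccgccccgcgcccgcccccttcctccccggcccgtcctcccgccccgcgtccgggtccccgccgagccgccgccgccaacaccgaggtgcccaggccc
Mcl1 (chr3:95658471-95658770, plus strand): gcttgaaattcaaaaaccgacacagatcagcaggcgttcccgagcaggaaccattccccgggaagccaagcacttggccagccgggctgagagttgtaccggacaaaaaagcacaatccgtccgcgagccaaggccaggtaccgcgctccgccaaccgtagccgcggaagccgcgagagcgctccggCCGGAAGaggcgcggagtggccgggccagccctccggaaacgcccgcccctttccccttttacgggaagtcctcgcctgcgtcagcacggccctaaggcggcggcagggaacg
Bak1 (chr17:27028578-27028877, minus strand): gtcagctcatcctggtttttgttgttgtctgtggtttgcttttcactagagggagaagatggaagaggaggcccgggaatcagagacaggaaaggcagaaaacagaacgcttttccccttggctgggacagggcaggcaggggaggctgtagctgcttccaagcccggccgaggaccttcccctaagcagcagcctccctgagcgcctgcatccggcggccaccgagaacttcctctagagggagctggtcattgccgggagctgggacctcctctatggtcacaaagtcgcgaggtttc
Bcl2l11 (chr2:128125788-128126087, plus strand): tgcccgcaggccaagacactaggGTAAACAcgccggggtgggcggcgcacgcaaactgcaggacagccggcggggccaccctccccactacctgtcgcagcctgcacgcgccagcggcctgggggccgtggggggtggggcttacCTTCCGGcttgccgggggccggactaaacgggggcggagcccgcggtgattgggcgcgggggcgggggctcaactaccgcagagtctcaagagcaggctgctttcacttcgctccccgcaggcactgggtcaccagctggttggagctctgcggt
Bbc3 (chr7:16310011-16310310, plus strand): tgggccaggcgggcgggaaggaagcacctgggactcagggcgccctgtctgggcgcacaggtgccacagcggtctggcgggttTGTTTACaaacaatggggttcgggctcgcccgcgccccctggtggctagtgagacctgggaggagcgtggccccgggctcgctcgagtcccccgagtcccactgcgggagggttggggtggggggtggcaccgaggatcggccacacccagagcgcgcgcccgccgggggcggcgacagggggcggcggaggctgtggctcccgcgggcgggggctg

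The Bcl2 window has a CREB core (TGACGT) 107 bases before the start, and the Mcl1 window has an ETS motif (CCGGAAG) 63 bases before it. The Bcl2l11 window has a FoxO core (GTAAACA) 227 bases before its start and an ETS motif on the opposite strand 105 bases before it. In Bbc3 the FoxO core lies on the opposite strand, 167 bases before the start. The Bak1 window holds none of these letters on either strand, nor the STAT motif TTCNNNGAA, which was in 0 of the 16 windows of the 9 members that have one. No searched motif overlaps another in these windows. The FoxO core was in 2 of the 16 windows and in 3.65% of all 32851 windows of the table. The ETS motif was in 3 of 16 and in 8.86% of all, and the CREB core in 1 of 16 and in 7.51% of all, while the STAT motif was in 8.30% of all. GC content was 76.0% in the Bcl2 window and 58.3% in the Bak1 window, against a median of 52.7% over all windows. These matches describe letters in the windows, not bound sites.

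Fewer probes were detected on the KO arrays. A probe counts as detected where its signal beats the array's negative controls with a detection p below 0.05. The KO arrays detected 34.2% to 34.9% of all probes and the WT arrays 48.5% to 50.6%, and of the 28 member probes 12 to 14 against 19 to 23. After quantile scaling the lowest detected log2 signal was 5.36 to 5.41 on KO arrays and 4.62 to 4.67 on WT arrays. On that scale a dim gene needed a higher value to count as detected in KO. Raw signals did not show that order. Bid probe ILMN_2757287 was detected at 110 in KO embryo A, and Bbc3 probe ILMN_2690620 was not detected at 117 in WT embryo B. Fgfr2 itself was read by 4 probes, the brightest of which gave 12.09 ± 0.11 in WT embryos and 12.25 ± 0.12 in KO embryos (log2 normalised intensity, SD, n = 3). The next brightest probes had log2 fold changes of 0.86 and 0.68, and ILMN_2646078 was detected on 3 WT arrays and 0 KO arrays (5.56 ± 0.54 and 4.66 ± 0.21), none past the test in limma. The labels do not say which exons are lost, and a probe outside them would not test the genotype. Markers of surface epithelium were detected in both groups (12 of 12 tested, 0 called), with Cdh1 at a log2 fold change of 0.01. Their summed level was 20315 to 21853 in WT and 17617 to 20021 in KO (linear normalised intensity), lower in every KO embryo. For 5 of the 12, Epcam (-1.59), Krt15, Krt18 (-2.62), Krt8 and Pax6, every WT array stood above every KO array. That pattern was shown by 17.2% of all items. The KO mean was lower for 6 of the 12, and for Krt5 (0.66) every KO array stood above every WT array. The share of all items in that reverse order was not counted.

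Some markers of other cells passed the test, against 2.41% of all items called. Of 12 periocular mesenchyme markers 5 rose and 1 fell, with sums of 3689 to 4276 in WT and 4537 to 8410 in KO. Among the 5, Prrx1 passed the detection filter through its KO arrays only, and its WT values are bounds. Of 6 tested red blood cell markers 4 rose, with sums of 1002 to 1214 in WT and 7176 to 8384 in KO. Of 4 tested lens markers Cryab rose, with sums over the list of 144 to 220 in WT and 195 to 601 in KO. Leukocyte markers summed to 243 to 519 in WT and 31.9 to 711 in KO, and 0 of 4 tested were called. Cx3cr1, Mrc1 and Tyrobp were detected on no KO array, and Csf1r in KO but on no WT array. Laptm5 read 9.42 in KO embryo B, against 4.51 and 4.37 in KO embryos A and C. Endothelial markers summed to 45.0 to 48.4 in WT and 60.9 to 241 in KO, with 0 of 1 tested called. The part of these cells in the values of the BCL2 family was not tested, and in tissue samples fewer cells of a type and less RNA per cell cannot be told apart.

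No member of the BCL2 family passed the test. Values are log2 normalised intensities of the gene's brightest probe, and a gene was called at a limma adjusted p below 0.05 over 13916 tested items. Of the 9 members 0 were called, against 2.41% of all items called, and 2 (Bcl2 and Bak1) had an unadjusted p below 0.05 in limma, as did 19.4% of all items. With median scaling or with no scaling between arrays 3 members passed (Bcl2, Bak1 and Bid), and Bcl2 also passed when KO embryo C was left out (log2 fold change -2.10, limma adjusted p = 0.044). The KO mean was lower for 7 of 9 members (6 with cyclic loess, 8 with median scaling and 9 with no scaling) and for 54.3% of all items. The median log2 fold change of the members was -0.58, against -0.09 over all items. For 4 members (Bcl2, Mcl1, Bak1 and Bid) every WT array stood above every KO array, a pattern that 17.2% of all items showed. That count was 6 with median scaling (28.7% of all items) and 6 with no scaling between arrays (40.2%), and with cyclic loess (12.2%) it was 1, Bcl2. Bak1 passed the detection filter through its WT arrays only and its KO values are bounds, and these counts are no support for a family-wide difference.

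**Figure D1:**
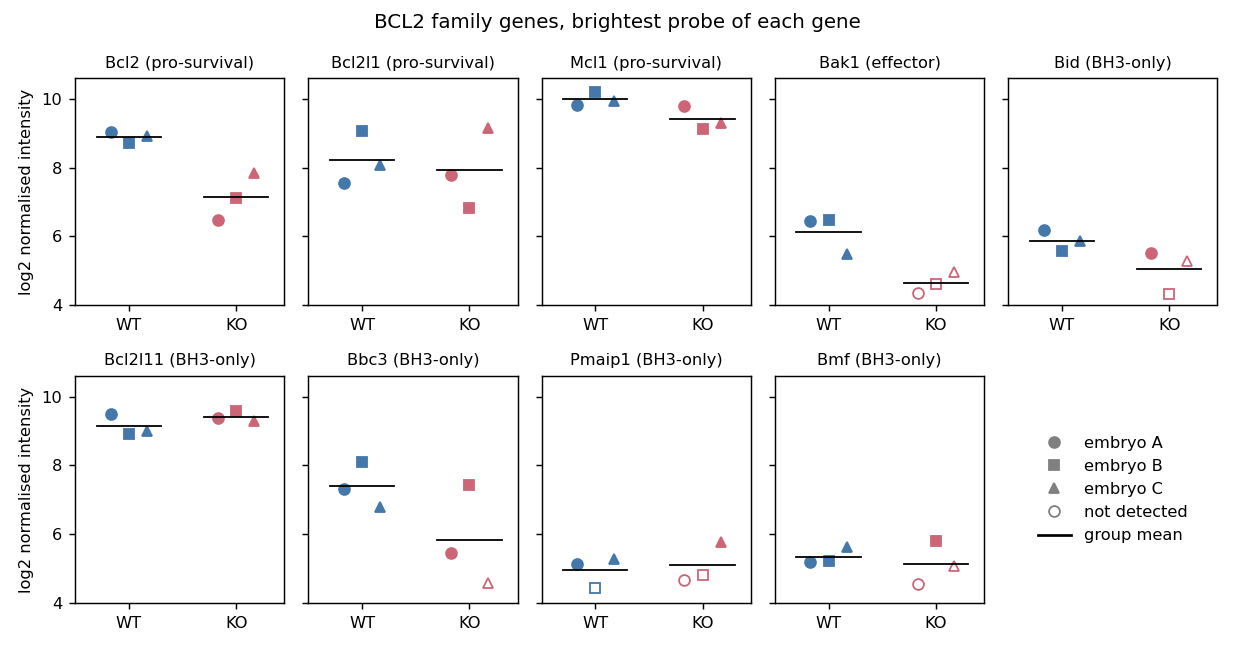
Log2 normalised intensity of the brightest probe of each of the 9 BCL2 family genes by genotype, 1 point per embryo, with the group mean as a bar and open points where the probe was not detected. The WT points of Bcl2, Mcl1, Bak1 and Bid all lie above the KO points, and those of the other 5 genes overlap.

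Bcl2, the founding survival gene of the family, had the smallest p among the members. Its brightest probe, ILMN_1249021, read 9.05, 8.72 and 8.91 in WT embryos A, B and C and 6.47, 7.13 and 7.84 in KO embryos A, B and C. All 3 KO embryos lay below all 3 WT embryos, and the KO values spread more widely (SD 0.69 against 0.17). Before background correction the same probe gave raw signals of 711, 580 and 696 in WT and 136, 190 and 245 in KO, and it was detected on all 6 arrays. The log2 fold change was -1.75 (SE 0.41, 95% confidence interval -2.76 to -0.74), or 3.36-fold lower in KO. It did not pass the test, with a limma adjusted p = 0.099.

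The other Bcl2 probes differ from the brightest. ILMN_1249366 read 6.55, 8.05 and 6.48 in WT and 6.06, 8.81 and 6.68 in KO, and embryo B was the highest of each group. ILMN_2706514 also had embryo B highest in each group, with 5.81, 7.58 and 5.90 in WT and 5.99, 8.53 and 4.44 in KO. KO embryo C was not detected on that probe, so its value is a bound. The log2 fold changes of ILMN_1249366 and ILMN_2706514 were 0.16 (SE 0.86) and -0.11 (SE 1.17). ILMN_2682162, which the annotation assigns to a second Bcl2 transcript, read 6.35, 7.50 and 5.72 in WT and 5.08, 5.07 and 5.90 in KO. It was detected on 3 WT arrays and 1 KO array and its log2 fold change was -1.17 (SE 0.52), with a limma adjusted p = 0.45 over all 45281 probes fitted without a filter. The remaining pair past the filter, ILMN_1243345 and ILMN_2597272, had log2 fold changes of 0.52 and 0.25 and overlapping groups. The mean over the 6 passing Bcl2 probes gave a log2 fold change of -0.35 (limma adjusted p = 0.72), and 3 further probes did not pass the filter.

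**Figure D2:**
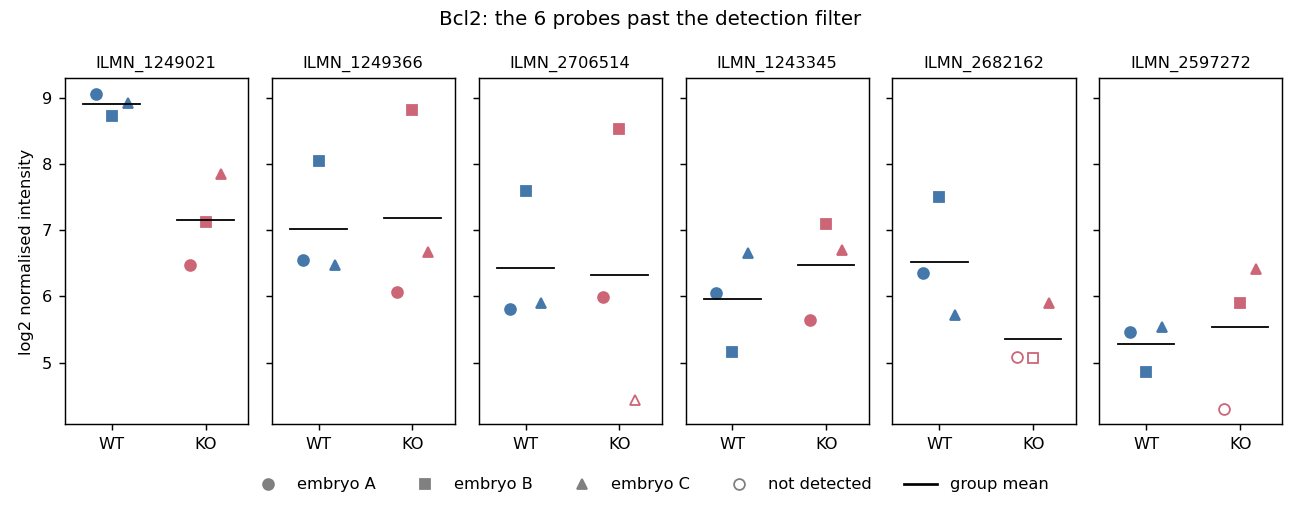
Log2 normalised intensity of the 6 Bcl2 probes past the detection filter, 1 point per embryo, with group means as bars and open points where the probe was not detected. The groups stand apart for ILMN_1249021, at 8.90 ± 0.17 in WT and 7.15 ± 0.69 in KO, and overlap for the other 5 probes.

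Mcl1, a short-lived survival protein that also binds BH3-only proteins, was read by 1 probe. ILMN_1216732 gave 9.83, 10.20 and 9.95 in WT and 9.79, 9.14 and 9.31 in KO. The KO values all lay below the WT values, but KO embryo A and WT embryo A differed little. The log2 fold change was -0.58 (SE 0.31, 95% confidence interval -1.33 to 0.17), or 1.50-fold lower, with a limma adjusted p = 0.37. That interval holds both no difference and a difference larger than the one measured.

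Bcl2l1, which encodes BCL-XL, varied widely within the KO group. ILMN_2647885 read 7.54, 9.07 and 8.08 in WT and 7.79, 6.82 and 9.16 in KO, so the highest and the lowest of the 6 arrays were both KO. KO embryo B was the lowest on the other passing probes too, at 4.33 on ILMN_2742557 against 8.02 and 7.92 in KO embryos A and C. On ILMN_2698430 it read 4.51, against 7.87 and 5.97. KO embryo B was not detected on either of these other probes, so its values there are bounds. The gene's log2 fold change was -0.31 (SE 0.70, 95% confidence interval -2.02 to 1.41), with a limma adjusted p = 0.85. Without KO embryo B the gene stood at 0.24 and without WT embryo B at 0.11, so its sign rests on single embryos. The log2 fold changes of these other probes were -0.02 and -0.68. The remaining Bcl2l1 probe was detected on no array.

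Bak1, a pore-forming effector of the mitochondrial membrane, was detected on 3 WT arrays and 0 KO arrays. ILMN_2945835 read 6.46, 6.47 and 5.48 in WT and 4.36, 4.61 and 4.97 in KO, where every value lay below the lowest detected signal of its array. Its raw signals were 218, 212 and 164 in WT and 97.3, 106 and 104 in KO, and a KO value is therefore a bound. On this scale the WT mean of Bak1 lay at least 1.69-fold above KO. That bound sets the bright group's mean against the higher of the dim probe's own signal and the lowest detected signal. It carries no error term and was not computed under other settings. The fitted log2 fold change was -1.49 (SE 0.39), with a limma adjusted p = 0.12, and -0.54 with no background correction.

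Bid, a BH3-only protein that caspase-8 cleaves to carry a death receptor signal to the mitochondrion, had 2 probes that both stood lower. ILMN_2757287 read 6.18, 5.57 and 5.86 in WT and 5.51, 4.34 and 5.29 in KO, with detection on 3 WT arrays and 1 KO array. ILMN_3161878 read 5.33, 6.03 and 5.47 in WT and 4.32, 4.29 and 4.41 in KO, with detection on no KO array. On both probes the WT arrays stood above the KO arrays. The log2 fold change was -0.82 on the first (SE 0.41, 95% confidence interval -1.82 to 0.18, limma adjusted p = 0.34), and -0.47 without KO embryo B. The second was at least 1.17-fold lower in KO by its WT mean, and its KO values are bounds. WT embryo A, at 5.33, lay under the lowest detected KO signal of 5.36. The limma adjusted p = 0.061 of that probe was the smallest of any member probe when all 45281 were fitted without a filter. It rests on KO values that were not detected and is no support for a difference.

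Bcl2l11, which encodes BIM, had a higher KO mean on its brightest probe, except with no scaling between arrays, where its log2 fold change was -0.21. ILMN_2590638 read 9.48, 8.92 and 9.01 in WT and 9.39, 9.57 and 9.29 in KO. The groups overlapped through WT embryo A. The log2 fold change was 0.28 (SE 0.30, 95% confidence interval -0.44 to 1.00), with a limma adjusted p = 0.66, and 0.17 to 0.46 with 1 embryo left out, the extremes being without WT embryo B and without WT embryo A. ILMN_3157568, annotated to another transcript, read 8.56, 8.18 and 8.00 in WT and 6.19, 8.01 and 8.39 in KO. KO embryo A was lowest there by a wide gap, and the log2 fold change was -0.71 (SE 0.62). ILMN_1229255 had a log2 fold change of 0.06, with KO embryo C highest, and the remaining probe did not pass the filter.

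Bbc3, which encodes PUMA, a BH3-only protein induced by p53, differed between its probes. ILMN_2920736 read 7.31, 8.09 and 6.80 in WT and 5.47, 7.43 and 4.58 in KO. KO embryo B lay within the WT range, and the other KO embryos below it, with embryo C not detected and its value a bound. Its log2 fold change was -1.58 (SE 0.79, 95% confidence interval -3.49 to 0.34), with a limma adjusted p = 0.34, and it was -2.38 without KO embryo B and -0.95 without KO embryo C. ILMN_2690620 read 4.78, 4.66 and 4.83 in WT and 6.26, 5.35 and 5.54 in KO, the reverse order, with every KO array above every WT array. Its raw signals overlapped, at 127, 117 and 133 in WT and 127, 113 and 108 in KO, and the log2 fold change of 0.96 (SE 0.26, adjusted p = 0.19) appeared after background correction and quantile scaling. It was the 1 passing member probe with the KO arrays above the WT arrays, a pattern whose share over all items was not counted. The remaining probe was detected on no array, and the mean of the passing pair gave -0.31.

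Pmaip1 and Bmf were each detected on 1 KO array. Pmaip1 encodes NOXA, a BH3-only protein that targets MCL1, and ILMN_2670625 read 5.13, 4.43 and 5.28 in WT and 4.68, 4.82 and 5.78 in KO. It was detected on 2 WT arrays, and the groups overlapped. The log2 fold change was 0.14 (SE 0.43, adjusted p = 0.89) but -0.32 with median scaling, -0.64 with no scaling, -0.20 without KO embryo C and -0.12 without WT embryo B, and the other Pmaip1 probes did not pass the filter. Bmf encodes a BH3-only protein linked to loss of cell attachment, and ILMN_2497190 read 5.18, 5.22 and 5.64 in WT and 4.55, 5.80 and 5.08 in KO. Its log2 fold change was -0.20 (SE 0.40, adjusted p = 0.83), close to 0 with cyclic loess (0.0048) and 0.094 without KO embryo A. The groups overlapped. The WT means of Pmaip1 (4.95) and Bmf (5.35) lay under the lowest detected KO signal of 5.36, so both fold changes are fitted values only.

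**Figure D3:**
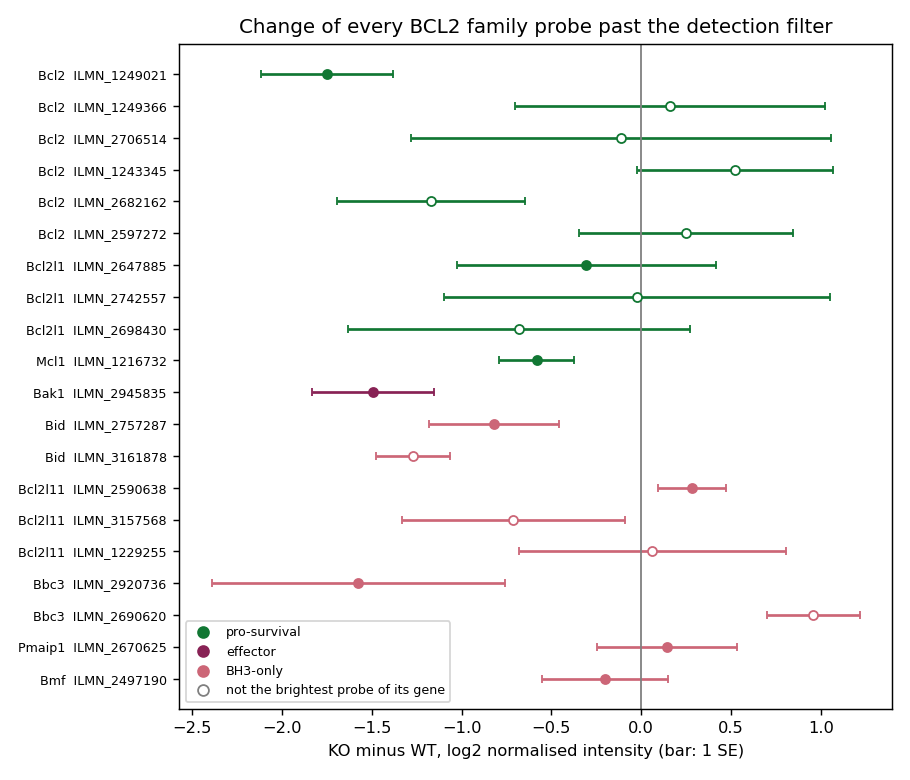
KO minus WT log2 fold change of the 20 member probes past the detection filter, each with a bar of 1 SE from the limma fit of all probes, coloured by role and open where the probe is not the brightest of its gene. The KO mean was lower for 13 of the 20, and probes of 1 gene lie on both sides of 0 for Bcl2, Bcl2l11 and Bbc3.

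The pro-survival and pro-death members were set against each other on each array. For each array the log2 value of every tested member, less its WT mean, was averaged over the 3 pro-survival genes and over the 6 pro-death genes. In WT embryos A, B and C the pro-survival average stood at -0.23, 0.29 and -0.06, and in KO embryos A, B and C at -1.03, -1.34 and -0.27. The pro-death average stood at 0.15, -0.02 and -0.13 in WT and at -0.81, -0.38 and -0.64 in KO. In all 3 KO embryos both averages lay below every WT value, by a narrow gap for the pro-survival average of KO embryo C. Without Bak1, whose KO values are bounds, the pro-death average was 0.12, -0.10 and -0.02 in WT and -0.62, -0.15 and -0.53 in KO. KO embryo B then lay close to the lowest WT embryo. That average still held undetected KO values, since Bid, Pmaip1 and Bmf were detected on 1 KO array each and Bbc3 on 2. The pro-survival average less the pro-death average was -0.38, 0.31 and 0.07 in WT and -0.21, -0.96 and 0.37 in KO, so the genotypes overlapped and no common direction of the balance appeared. The median log2 fold change was -0.58 for the pro-survival members and -0.51 for the pro-death members, and a summary over chosen members was given no test.

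**Figure D4:**
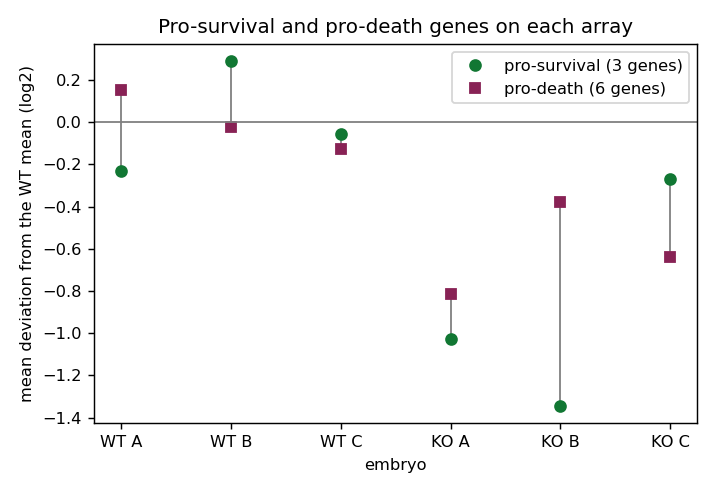
Mean deviation from the WT mean (log2) of the 3 pro-survival and 6 pro-death genes on each of the 6 arrays, joined by a line per embryo. KO embryo B shows the widest gap, with the pro-survival genes at -1.34 and the pro-death genes at -0.38, and KO embryo C the opposite order.

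The KO embryos differed more among themselves than the WT embryos did, in this family and on the array as a whole. The SD between embryos was larger in KO for 7 of 9 members, with medians of 0.62 in KO and 0.31 in WT. Over all items it was larger in KO for 83.0%, with medians of 0.80 and 0.30. The standard error between beads of a probe was 1.90% to 7.99% of its signal for the member probes, with 15 to 64 beads per probe.

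The wider apoptosis pathway had no called gene in any of its 7 lists, and of all items 2.41% were called. A lower KO mean, counted below for each list, was shown by 54.3% of all items. Of 6 tested other BCL2 family genes 4 had a higher KO mean, with a list median of 0.45. Among them Bad, a BH3-only gene, was lower in every KO embryo (log2 fold change -1.40, SE 0.47, limma adjusted p = 0.18). Bcl2l12 was higher in every KO embryo at 0.98 (adjusted p = 0.27). The share of all items higher in every KO embryo, as Bcl2l12 and Fbxw7 below were, was not counted. Of 9 apoptosome and caspase genes 1 had a lower KO mean, and the median was 0.12. Apaf1, the scaffold of the apoptosome, stood at 1.08 (adjusted p = 0.45) and Htra2, a mitochondrial protease, at 1.47 (adjusted p = 0.57). Of 4 inhibitors of apoptosis 3 had a lower KO mean, with Birc6 at -0.42 (adjusted p = 0.59) and Birc2 at -0.35 (adjusted p = 0.77), and the median was -0.28.

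The death receptor list lay lowest, with 6 of 7 genes lower in KO mean and a median of -0.68. Casp8, the initiator caspase that cleaves BID, stood at -1.77 (SE 0.51, limma adjusted p = 0.14), and Fas, a death receptor, at -1.23 (SE 0.38, adjusted p = 0.15). For both, every WT array stood above every KO array, as for 17.2% of all items, and each was detected on 1 KO array. Of 10 tested p53 target genes 8 had a lower KO mean and the median was -0.05. Zmat3, not detected in KO, had a WT mean at least 1.24-fold above its KO bound (limma adjusted p = 0.27). Its groups overlapped, with WT embryo C at 4.92 and KO embryo B at 5.14. WT embryo C also lay under the lowest detected KO signal of 5.36, so a lower level in KO is not established. Sesn2 stood at 1.31 (adjusted p = 0.59). Of 7 FoxO and stress regulators 4 had a lower KO mean and the median was -0.04, with Atf4 at -0.64 (adjusted p = 0.26) and Ddit3 not detected in KO, with a WT mean of 5.20 that lies under the lowest detected KO signal, so no fold is given. Of 7 genes of MCL1 turnover and mitochondrial fission 2 had a lower KO mean and the median was 0.09. Fbxw7, a ubiquitin ligase subunit for MCL1, was higher in every KO embryo at 0.84 (adjusted p = 0.27), and Mff, a receptor in mitochondrial fission, stood at 0.55 (adjusted p = 0.39).

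**Figure D5:**
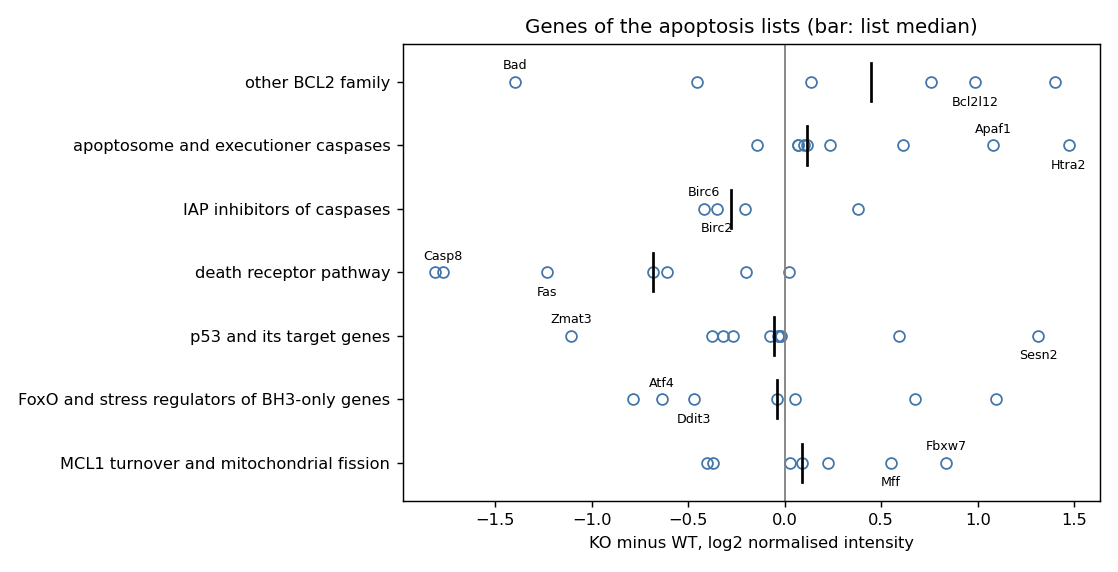
KO minus WT log2 fold change of each tested gene of the 7 apoptosis lists, with the list median as a bar and the pair of smallest p named. The death receptor list has the lowest median, -0.68, and the other BCL2 family list the highest, 0.45, and no gene passed the test. Ddit3, Zmat3 and Eda2r were not detected in KO, so their points are fitted values only.

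The genes whose pattern over the 6 arrays was most like that of Bcl2 were Robo2, Pold3, Mrpl18 and Crtap. Their root mean square difference from Bcl2, each gene centred on its own mean, was 0.099, 0.13, 0.14 and 0.16 on the log2 scale, and their log2 fold changes ran from -1.93 to -1.68. For Mcl1 they were Pcna, Prkcsh, Usp5 and Sec11c, with differences of 0.11 in each and log2 fold changes of -0.55 to -0.41. Likeness over 6 arrays is a description of these embryos.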

How the data were processed

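The members were named as a gene family, and they and the gene lists were chosen with earlier results of these data known. Per the labels' protocols, 15 ng of RNA per embryo was amplified with a NuGEN kit and labelled with biotin. All 6 arrays came from 1 slide. GenomeStudio was used upstream, per the submitters' processing notes, in a version not given in the sources used here. As deposited, the scanner table holds a linear intensity for each probe without normalisation, a detection p-value, and as a score the number of beads averaged, per the file headers. The authors' processed intensity table is linear, ranks probes on each array as the scanner table does, and has medians of 9.03 to 9.05. Its centring and normalisation are unknown, and it served as an alternative. The files name no genome build.

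Scanner intensities went through neqc of limma 3.58.1 in R 4.3.3 (offset 16, quantile, log2). A probe was kept if detected (p below 0.05) on 3 or more of the 6 arrays, which left 20853, and the brightest stood for its gene. Genotype was the sole term of lmFit and eBayes, and p-values were adjusted by Benjamini-Hochberg across 13916 items, of which 336 were called (115 higher, 221 lower). Single probes were fitted over the whole array with no filter. The code of the fit was run on simulated data with planted changes larger than any member's and the same spread in both groups. That run does not show how well changes of the members' size would be found. All members are named, and of each pathway list the called genes and the 2 of smallest p. The number of arrays limits the precision. Background, scaling, filters, the probe standing for a gene, variance models, weights on arrays, a block on replicate letters and single left-out embryos were varied. Figures were drawn with matplotlib 3.10.9.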

Additional observations from a re-analysis of the deposited data

How the results depend on the processing

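The count of members called was 0 as reported and 0 in 16 of 20 alternatives or leave-one-out runs. It was 3 (Bcl2, Bak1 and Bid) with median scaling and 3 with no scaling between arrays, settings that move the median of all items by -0.40 and -0.72. It was 1 (Bcl2) at an adjusted p below 0.10. Leaving out 1 embryo gave 0 to 1, and the 1 was Bcl2 without KO embryo C (-2.10, limma adjusted p = 0.044). Bcl2, Mcl1, Bak1, Bid and Bbc3 stayed lower in KO in every alternative that gave them a value. The sign of Bcl2l11 turned with no scaling (-0.21) and with the mean over its probes (-0.12), an alternative chosen after seeing the data, and Pmaip1 turned with median scaling (-0.32) and no scaling (-0.64). Bmf turned with cyclic loess (0.0048). Leaving out 1 embryo gave -0.93 to 0.24 for Bcl2l1, -0.53 to 0.094 for Bmf, -0.20 to 0.35 for Pmaip1, -1.05 to -0.47 for Bid, -2.38 to -0.95 for Bbc3 and 0.17 to 0.46 for Bcl2l11. The cause of these shifts was not tested.

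All items called numbered 336, and 1068 with median scaling, 2068 with no scaling, 660 with no filter, 189 with the stricter filter (which left 4 members tested), 185 with array weights and 764 at an adjusted p below 0.10. Leaving out 1 embryo gave 12 to 563. With the replicate block 0 items and 0 members were called in limma (2079 and 3 at an unadjusted p below 0.05). Same-letter embryos correlated at -0.029, -0.0043 and -0.0052 in their deviations from the group mean. The labels do not say whether a letter marks a shared litter, and these correlations cannot exclude it. Detection limits the dim members, above all Bak1, Bid, Pmaip1 and Bmf in KO.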
